A study of Homo sapiens with 15 samples.

Results

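The 9 genes described here encode enzymes of amino acid synthesis outside the serine pathway, together with the mitochondrial form of phosphoenolpyruvate carboxykinase. They are ASNS, ALDH18A1, PYCR1, GOT1, GOT2, GPT2, GLUL, CTH and PCK2. They were picked by symbol from the 25737 entries of the deposited table, with earlier results of these data known. The comparisons against GFP contributed to that choice, so for these comparisons no p of a member is given, and counts of members past the test's threshold are a description only. Each gene had a single entry, and all 9 were among the 12870 genes tested, which are the upper 50% of the table by mean deposited log2 value (3.22 or more). U87MG, a long-established human glioblastoma cell line, had been given a lentivirus 24 h earlier, which carried GFP in the control group and ID1, ID2, ID3 or ID4 in the others. ID proteins bind basic helix-loop-helix transcription factors and keep them off DNA. Each of the 5 groups had 3 libraries made with the QuantSeq kit, which reads the 3′ ends of polyadenylated transcripts, so that all groups share the cell line and a lentivirus. The labels do not say whether the 3 libraries of a group were separate cultures, and p-values measure only the spread between these libraries.

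Asparagine, proline, alanine, aspartate, glutamine and cysteine can be made by the cell itself. Transaminases move amino groups between amino acids and keto acids, in the cytosol and in mitochondria, and glutamate and glutamine are the main carriers of nitrogen in this network. Several of these enzymes, ASNS above all, are textbook targets of the transcription factor ATF4, which is made when amino acids run short or unfolded proteins build up.

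Total counts were 11089044 to 15148979 per library (median 13403327), and 3 counts corresponded to 0.198 to 0.271 CPM (the count scaled to 1000000 counts per library), a floor that covers counting error only. Groups are called by their labels, because the gene named in the label was not higher in each of them. The mRNA level of ID1 was 344 ± 6.96 CPM (SD, n = 3) in GFP and 250 ± 3.60 in the libraries labelled ID1. That of ID2 was 85.7 ± 2.81 in GFP and 44.9 ± 1.28 in the libraries labelled ID2. It was also below GFP in those labelled ID1, ID3 and ID4, at 34.3, 46.7 and 35.9 CPM. ID3 was 221 ± 8.33 in GFP and 313 ± 11.4 in its own libraries. It was 184, 287 and 207 CPM in those labelled ID1, ID2 and ID4. The libraries labelled ID2 (268 to 319) overlapped for ID3 with its own (301 to 323), so its rise was not limited to its own label. ID4 rose from 0 to 2 counts per GFP library to 223 ± 12.5 CPM in its own libraries. Of the markers of the line, VIM, CD44, FN1 and NES were detected in every library, while the glial markers GFAP and OLIG2 were at or near 0. The summed level of 6 markers of other cells (PTPRC, CD14, EPCAM, CDH1, PECAM1 and CDH5) was 0.726 to 2.01 CPM over all 15 libraries, and the ranges of all 5 groups overlapped. In bulk RNA, fewer cells that express a gene and less of its RNA per cell cannot be told apart.

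Promoter sequences of the NCBI RefSeq table (build GRCh38.p14, 250 bases before and 50 after the transcription start) were found for 7 of the 9 genes, and PYCR1 and GPT2 had no entry. The composite C/EBP and ATF element, searched as TGATGNAA on both strands, was present in the promoters of ASNS and GOT1. These 2 promoters are shown because they hold the element while their mRNA levels moved by very different amounts. Both genes lie on the minus strand, the sequences read 5′ to 3′ in the direction of the gene, and capitals mark the match.
ASNS: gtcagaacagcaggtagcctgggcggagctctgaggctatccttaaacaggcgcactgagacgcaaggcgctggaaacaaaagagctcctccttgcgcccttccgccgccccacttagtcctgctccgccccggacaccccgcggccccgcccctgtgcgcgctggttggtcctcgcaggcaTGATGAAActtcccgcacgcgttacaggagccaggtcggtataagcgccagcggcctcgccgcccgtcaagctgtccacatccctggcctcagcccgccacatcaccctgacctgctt
GOT1: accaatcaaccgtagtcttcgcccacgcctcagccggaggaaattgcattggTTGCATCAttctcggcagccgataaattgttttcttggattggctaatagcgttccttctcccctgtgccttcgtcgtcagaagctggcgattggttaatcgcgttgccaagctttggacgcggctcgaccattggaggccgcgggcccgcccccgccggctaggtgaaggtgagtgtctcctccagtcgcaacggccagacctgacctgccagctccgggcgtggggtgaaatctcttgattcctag
The ASNS promoter spans chr7:97872359-97872658 and the GOT1 promoter chr10:99430575-99430874. In ASNS the match lay at positions -68 to -61 from the start on the strand shown, and in GOT1 at -198 to -191 on the opposite strand. The entries of CTH and PCK2, which fell with ASNS, did not hold these letters, nor did any other entry of the members. Of all 35116 promoters in the table, 3.62% held the element. The E-box CAGCTG, a site type of basic helix-loop-helix factors, was in the promoters of GOT2 (-177 to -172) and GLUL (-100 to -95), against 17.95% of all promoters. A match describes these letters only, and no binding was measured.

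Against GFP, ASNS mRNA was between 3.93 and 4.79 times lower in all 4 ID-labelled groups. PCK2, CTH and GPT2 fell in all 4 groups too, by smaller amounts. GLUL rose in the groups labelled ID1 and ID2, and PYCR1 rose in the group labelled ID2. GOT1 fell in ID2 and ID3 and GOT2 in ID2, by small amounts, and ALDH18A1 was not called. A gene is called when its p in the quasi-likelihood test of edgeR, adjusted by Benjamini-Hochberg over all tested genes, is under 0.05. In the comparison of ID1 with GFP, 5 members were called, 1 higher and 4 lower, where 22.1% of all tested genes were called. For ID2 8 members were called, 2 higher and 6 lower, beside 35.1% of all genes. For ID3 5 members were called, all lower, beside 28.6%, and for ID4 4 members were called, all lower, beside 21.6%. The 4 members called lower in every group were ASNS, PCK2, CTH and GPT2, and 4.16% of all tested genes were. The median log2 fold change of the 9 members was -0.10 for ID1, -0.33 for ID2, -0.21 for ID3 and -0.10 for ID4, while the median of all tested genes was 0.00 in each. The libraries of 6, 8, 5 and 6 members did not overlap with those of GFP for ID1, ID2, ID3 and ID4, beside 37.1%, 42.3%, 40.6% and 37.1% of all tested genes. All 4 comparisons use the same 3 GFP libraries, and since the members were chosen with these values known, nothing is read from the counts.

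**Figure D1:**
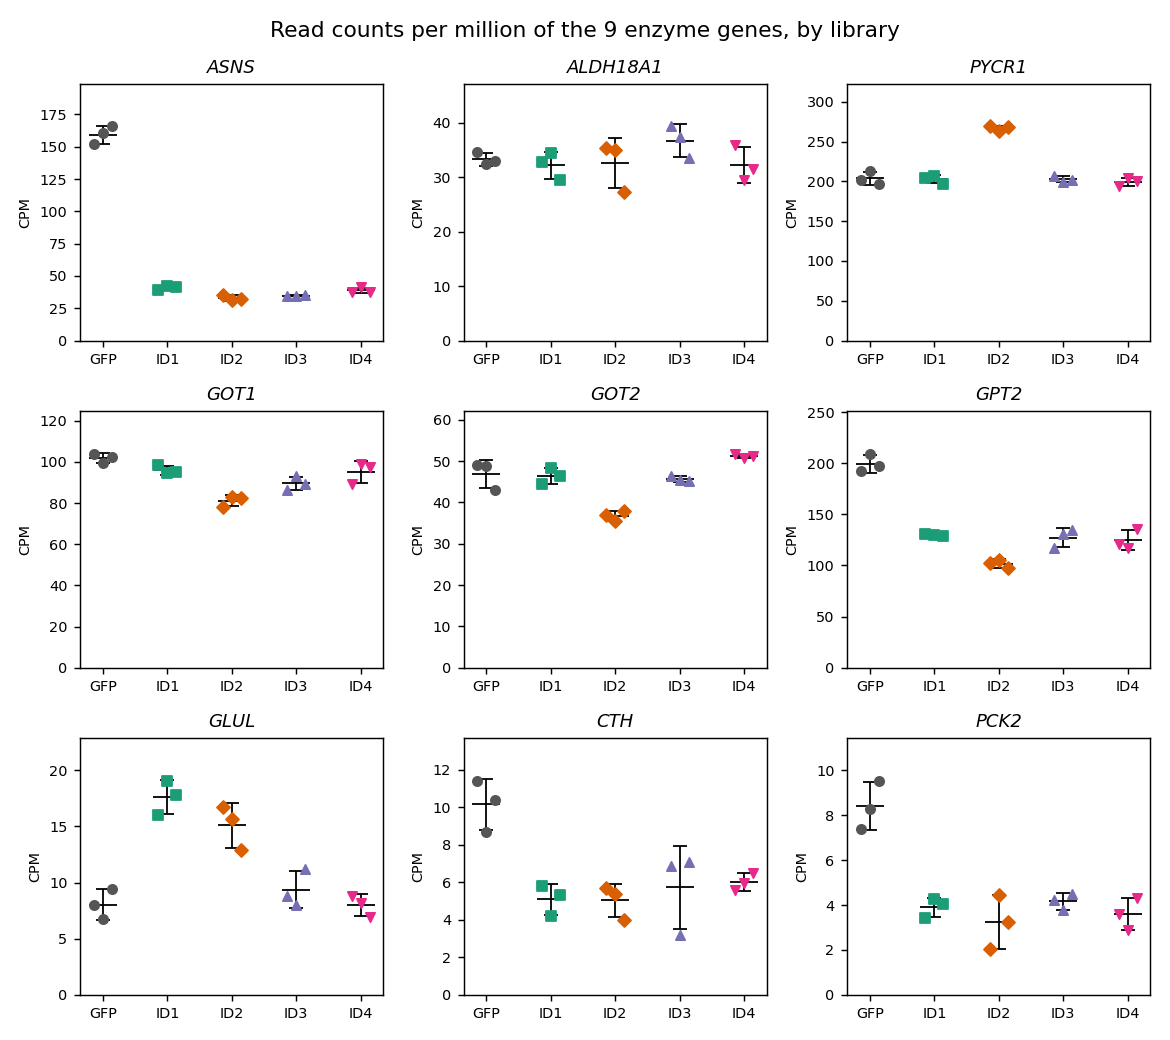
Levels in CPM (linear axes from 0) of the 9 genes in the 15 libraries; each point is 1 library, and lines give the mean and SD of the 3 libraries of a group. The GFP libraries of ASNS lie between 152 and 166 CPM and the other 12 between 31.6 and 42.3, and the PYCR1 libraries labelled ID2 lie above all others.

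ASNS transfers the amide nitrogen of glutamine to aspartate and so makes asparagine. On GRCh37 it is on chromosome 7, 97480989 to 97501854 (minus strand). Its level was 152, 161 and 166 CPM in the GFP libraries. It was 39.4, 42.3 and 41.3 in those labelled ID1, and 35.2, 31.6 and 31.9 in those labelled ID2. It was 34.4, 34.4 and 35.6 in those labelled ID3, and 37.9, 41.3 and 37.9 in those labelled ID4. No ID-labelled library came near the GFP range, and the spread within a group was small beside the gap. Against GFP, ASNS was 3.93 times lower for ID1 (95% interval 3.59 to 4.31), 4.79 times lower for ID2 (4.36 to 5.26), 4.64 times lower for ID3 (4.23 to 5.10) and 4.09 times lower for ID4 (3.73 to 4.49). On the log2 scale these were differences of -1.97, -2.26, -2.22 and -2.03, each with a standard error of 0.06. A set of 6 pseudogenes is named after ASNS, so reads could have been split between copies depending on the counting, which the sources used here do not describe.

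The depth of the fall differed between labels by much less. ASNS was higher in ID1 than in ID2, with no overlap of libraries, by 0.29 on the log2 scale (standard error 0.07, adjusted p = 0.00469, edgeR). It was also higher in ID1 than in ID3, by 0.24 (0.07, adjusted p = 0.0262), and lower in ID2 than in ID4, at -0.23 (0.07, adjusted p = 0.0240). The first of these 3 calls held with each library left out. The ID1 and ID3 call was lost without ID1 replicate 2 (0.22), ID1 replicate 3 (0.24), ID3 replicate 1 (0.22) or ID3 replicate 2 (0.24), and also when all genes with a count were tested (0.24). The ID2 and ID4 call was lost without ID2 replicate 2 (-0.19), ID2 replicate 3 (-0.21) or ID4 replicate 2 (-0.19), and when only those 2 groups were fitted (-0.23). In the order GFP, ID1, ID4, ID3, ID2 from the highest mean to the lowest, GFP and ID1 were the only neighbours called. ID4 was above ID3 by 0.18 on the log2 scale without passing the threshold (adjusted p = 0.0939).

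**Figure D2:**
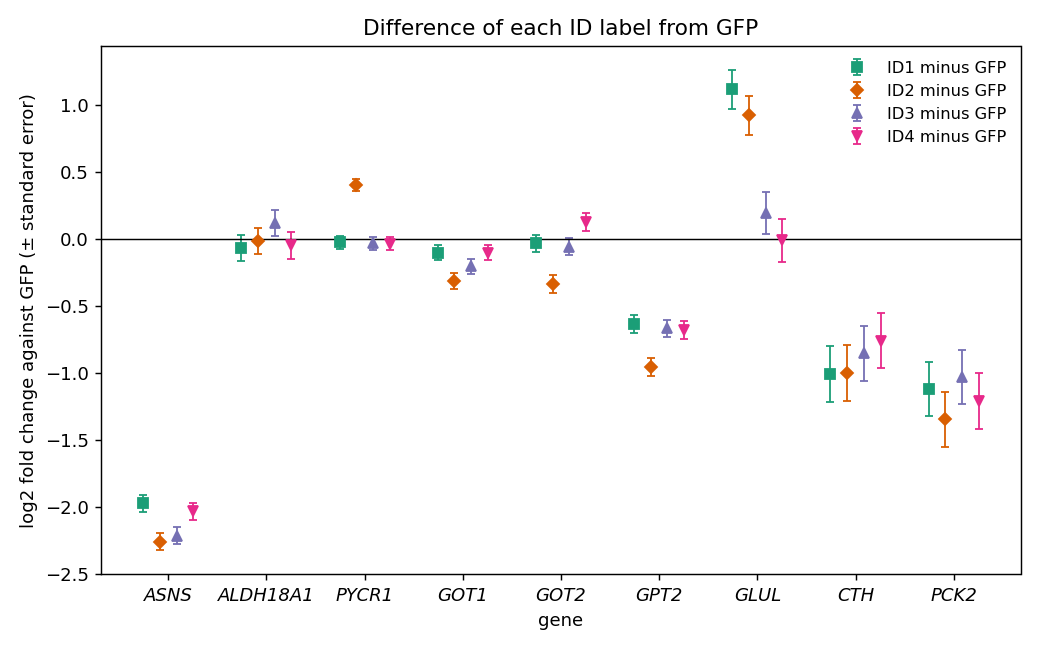
Log2 fold change of each gene in each ID-labelled group against GFP (y axis, log2 scale), with bars for the standard error from the edgeR fit over all 15 libraries. ASNS lies between -2.26 and -1.97 in all 4 groups, and among the 4 labels PYCR1 is 0.40 for ID2 and between -0.04 and -0.02 for the others.

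Proline is made from glutamate in the mitochondrion by ALDH18A1, which catalyses the first steps, and by pyrroline-5-carboxylate reductases such as PYCR1, which carry out the last. ALDH18A1 (chromosome 10 of GRCh37, 97365698 to 97416468, minus strand) had levels of 34.7, 32.4 and 33 CPM in GFP. It was 32.7, 34.5 and 29.5 in ID1, and 35.5, 35.1 and 27.4 in ID2. It was 39.4, 37.4 and 33.5 in ID3, and 35.9, 29.5 and 31.5 in ID4. Every group overlapped with GFP. Its log2 fold changes against GFP were -0.07, -0.02, 0.12 and -0.05 (standard error 0.10 each). Between ID labels no comparison was called, the lowest unadjusted p was 0.0688, and the 95% intervals reached a fold of at most 1.31 in either direction. No alternative setting gave a call between labels.

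PYCR1 (chromosome 17 of GRCh37, 79890260 to 79900288, minus strand) behaved otherwise. Its level was 202, 213 and 197 CPM in GFP, and 205, 207 and 197 in the libraries labelled ID1. It was 269, 263 and 268 in those labelled ID2. It was 207, 199 and 202 in those labelled ID3, and 194, 204 and 200 in those labelled ID4. The 3 libraries labelled ID2 were above the other 12, which all overlapped. Against GFP the log2 fold change was 0.40 for ID2 (standard error 0.05), a level 1.32 times higher (95% interval 1.23 to 1.42), and -0.02, -0.03 and -0.04 for ID1, ID3 and ID4. The comparisons between labels leave out the GFP means, although the GFP libraries were part of the common fit and of its estimate of spread. PYCR1 was higher in ID2 than in ID1 (-0.43 for ID1 minus ID2, standard error 0.05, adjusted p = 1.67e-06, edgeR). It was likewise higher in ID2 than in ID3 by 0.44 (0.05, adjusted p = 1.69e-06) and than in ID4 by 0.44 (0.05, adjusted p = 8.41e-07). These 3 calls held under every alternative tried. ID1, ID3 and ID4 differed from one another by at most 0.01, with 95% intervals of the fold of 0.94 to 1.08 for ID1 and ID3 as well as for ID1 and ID4.

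The genes next to PYCR1 moved in part with it. The 20 nearest tested genes had a median log2 fold change of 0.26 for ID2 against GFP, while the 699 tested genes placed on chromosome 17 had 0.02. For ID2 against ID1 the neighbours were again higher (-0.18 for ID1 minus ID2), and likewise for ID2 against ID4 (0.16). For ID2 against ID3 their median was 0.03, where PYCR1 itself differed by 0.44, and for ID3 against GFP it was 0.14, where PYCR1 differed by -0.03. MYADML2, which overlaps PYCR1 on the same strand, had 0 to 3 counts in any library. The part of the neighbourhood in the PYCR1 result was not tested.

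GOT1 and GOT2 are the cytosolic and mitochondrial aspartate aminotransferases, which interconvert glutamate and aspartate and together drive the malate-aspartate shuttle. GOT1 (chromosome 10 of GRCh37, 101156627 to 101190381, minus strand) was at 104, 99.3 and 103 CPM in GFP, and at 98.3, 94.4 and 95.1 in ID1. It was at 78.0, 82.7 and 82.5 in ID2. It was at 86.6, 93.1 and 89.3 in ID3, and at 89.3, 98.9 and 97.3 in ID4. All 12 ID-labelled libraries were below the lowest GFP library, and those labelled ID2 were the lowest. The log2 fold changes against GFP were small, at -0.10, -0.31, -0.21 and -0.10 (standard error 0.06 each), of which those of ID2 and ID3 were called. Genes of chromosome 10 as a whole were slightly lower too, with a median over 456 tested genes of -0.14, -0.16, -0.09 and -0.10, and their part in the GOT1 and ALDH18A1 values was not tested.

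Between labels, GOT1 was higher in ID1 than in ID2 by 0.21 (standard error 0.06, adjusted p = 0.0120, edgeR) and lower in ID2 than in ID4, at -0.21 (0.06, adjusted p = 0.0124). Both calls were lost when certain libraries were left out, although the differences changed little. The first was lost without ID1 replicate 1 (0.19) or ID2 replicate 1 (0.18), and the second without ID2 replicate 1 (-0.18), ID4 replicate 2 (-0.19) or ID4 replicate 3 (-0.19). The 20 nearest tested genes had medians of 0.08 and -0.11 in these 2 comparisons, and their part was not tested. In the order GFP, ID1, ID4, ID3, ID2 no pair of neighbours was called.

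GOT2 (chromosome 16 of GRCh37, 58741035 to 58768246, minus strand) was at 49.1, 48.7 and 42.9 CPM in GFP. It was at 44.6, 48.3 and 46.4 in ID1, and at 36.9, 35.6 and 37.9 in ID2. It was at 46.5, 45.5 and 45.2 in ID3, and at 51.8, 50.8 and 51.4 in ID4. The ID2 libraries were below all others and the ID4 libraries above all others. The log2 fold changes against GFP were -0.03, -0.33, -0.06 and 0.13 (standard error 0.07 each), and only that of ID2 was called. GOT2 was lower in ID2 than in ID1 (0.30 for ID1 minus ID2, standard error 0.07, adjusted p = 0.00233, edgeR), than in ID3 (-0.28, 0.07, adjusted p = 0.00596) and than in ID4 (-0.46, 0.07, adjusted p = 3.02e-05). These 3 calls held with each library left out. The 20 tested genes nearest to GOT2 had medians in the same direction, at 0.16 for ID1 minus ID2, -0.19 for ID2 minus ID3 and -0.25 for ID2 minus ID4, and their part in the result was not tested. ID4 was above ID3 by 0.18 and above ID1 by 0.16 without passing the threshold (adjusted p = 0.0714 and 0.197), although neither pair of groups overlapped. A set of 6 pseudogenes is named after GOT2, so here too reads could have been split between copies.

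GPT2, the mitochondrial alanine aminotransferase, makes alanine from pyruvate with nitrogen from glutamate. On GRCh37 it is on chromosome 16, 46918274 to 46965201 (plus strand). Its level was 192, 209 and 197 CPM in GFP. It was 131, 130 and 128 in ID1, and 103, 105 and 97.3 in ID2. It was 117, 131 and 134 in ID3, and 121, 117 and 136 in ID4. Every ID-labelled library was below every GFP library, and the 3 labelled ID2 were below the other 9. Against GFP it was 1.55 times lower for ID1 (95% interval 1.41 to 1.71), 1.94 times lower for ID2 (1.76 to 2.13), 1.59 times lower for ID3 (1.45 to 1.75) and 1.60 times lower for ID4 (1.46 to 1.76). Between labels, GPT2 was lower in ID2 than in ID1 (0.32 for ID1 minus ID2, standard error 0.07, adjusted p = 0.00161, edgeR), than in ID3 (-0.29, 0.07, adjusted p = 0.00518) and than in ID4 (-0.27, 0.07, adjusted p = 0.00589). The last call was lost without ID4 replicate 3 (-0.21). ID1, ID3 and ID4 were not told apart, with 95% intervals of the fold of 0.93 to 1.13 for ID1 and ID3, 0.94 to 1.14 for ID1 and ID4, and 0.92 to 1.11 for ID3 and ID4.

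GLUL, glutamine synthetase, joins ammonia to glutamate. On GRCh37 it is on chromosome 1, 182347233 to 182361341 (minus strand), and 4 pseudogenes are named after it. Its level was low, at 7.96, 6.71 and 9.46 CPM in GFP. It was 16, 19.1 and 17.8 in ID1, and 16.8, 15.6 and 12.9 in ID2. It was 8.80, 8.04 and 11.2 in ID3, and 8.82, 8.21 and 6.96 in ID4. The 6 libraries labelled ID1 or ID2 were above the other 9, while ID3 and ID4 overlapped with GFP. Against GFP it was 2.17 times higher for ID1 (95% interval 1.76 to 2.67) and 1.90 times higher for ID2 (1.53 to 2.35), and the log2 differences of ID3 and ID4 were 0.20 and -0.01 (standard error 0.16 each). The same split was tested between the labels themselves. GLUL was higher in ID1 than in ID3 by 0.92 (standard error 0.14, adjusted p = 0.000207, edgeR) and than in ID4 by 1.13 (0.15, adjusted p = 2.42e-05). It was higher in ID2 than in ID3 by 0.73 (0.14, adjusted p = 0.00124) and than in ID4 by 0.93 (0.15, adjusted p = 9.95e-05). These 4 calls held under each alternative that tested the gene, and a stricter filter that kept the upper 25% of genes left GLUL out. ID1 and ID2 were not told apart (fold 1.14, 95% interval 0.943 to 1.38), nor were ID3 and ID4 (fold 1.15, 0.921 to 1.45).

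CTH, cystathionine gamma-lyase, releases cysteine in the transsulfuration of methionine. On GRCh37 it is on chromosome 1, 70876901 to 70905534 (plus strand). Its level was 11.4, 8.70 and 10.4 CPM in GFP. It was 5.81, 4.19 and 5.30 in ID1, and 5.68, 5.40 and 4.01 in ID2. It was 6.86, 3.20 and 7.11 in ID3, and 5.6, 5.95 and 6.51 in ID4. All 12 ID-labelled libraries were below the GFP libraries, and ID3 replicate 2, with 45 counts, was the lowest of all. Against GFP it was 2.01 times lower for ID1 (95% interval 1.49 to 2.71), 2.0 for ID2 (1.48 to 2.70), 1.81 for ID3 (1.35 to 2.43) and 1.69 for ID4 (1.26 to 2.28). Between labels CTH was not called in any of the 6 comparisons (lowest unadjusted p = 0.277, edgeR), and the 95% intervals reached a fold of 1.64.

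PCK2, mitochondrial phosphoenolpyruvate carboxykinase, turns oxaloacetate into phosphoenolpyruvate. On GRCh37 it is on chromosome 14, 24563262 to 24579807 (plus strand). Its level was 7.40, 8.29 and 9.54 CPM in GFP. It was 3.43, 4.26 and 4.03 in ID1, and 2.04, 4.43 and 3.25 in ID2. It was 4.23, 3.77 and 4.49 in ID3, and 3.60, 2.89 and 4.31 in ID4. Every ID-labelled library was below every GFP library, and the libraries labelled ID2 were the most spread, from 28 to 64 counts. Against GFP it was 2.17 times lower for ID1 (95% interval 1.62 to 2.91), 2.54 for ID2 (1.89 to 3.42), 2.04 for ID3 (1.53 to 2.72) and 2.31 for ID4 (1.71 to 3.12). Between labels no comparison was called (lowest unadjusted p = 0.171, edgeR), and the 95% intervals reached a fold of 1.72, so that differences up to this size are within the error of these libraries. The gene NRL lies on the opposite strand over the 3′ end of PCK2 and had 8 to 25 counts per library (13 to 16 in GFP). The strand setting of the counting is not given in the sources used here, so reads of both genes may not be separated.

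Among the 54 tests of 9 members in the 6 comparisons between ID labels, 18 were called, and 6 of the members were called at least 1 time (35.7% of all tested genes were). ID1 against ID2 had 5 members called, beside 18.6% of all tested genes, of which 4 were higher (8.90% of all genes) and PYCR1 was lower (9.74%). ID2 against ID3 had 4, beside 15%, with PYCR1 and GLUL higher (7.58%) and GOT2 and GPT2 lower (7.46%). ID2 against ID4 had 6, beside 18.6%, with the same pair higher (9.53%) and ASNS, GOT1, GOT2 and GPT2 lower (9.07%). ID1 against ID3 had 2 members called, ASNS and GLUL, beside 9.18%, both higher, where 4.47% of all genes were called higher and 4.72% lower. ID1 against ID4 had GLUL alone, higher, beside 4.87% in all, 2.31% higher and 2.56% lower. Of the 18 calls, 15 came from comparisons with the group labelled ID2, in which ASNS, GOT1, GOT2 and GPT2 had their lowest means and PYCR1 its highest. All tested genes also had more calls in the comparisons with ID2 (18.6%, 15% and 18.6%) than in the others (9.18%, 4.87% and 11.3%). Nothing particular to the members is therefore read from this count. For ID3 against ID4, edgeR called 0 members beside 11.3% of all genes (5.49% higher, 5.77% lower). ASNS and GOT2, 2 members, had an unadjusted p under 0.05 there, and DESeq2 and limma also called 0. Groups did not overlap for 5 members in ID1 against ID2 (33.7% of all genes), 3 in ID1 against ID3 (30.6%), 2 in ID1 against ID4 (25.5%), 5 in ID2 against ID3 (28.9%), 6 in ID2 against ID4 (33.2%) and 2 in ID3 against ID4 (30.3%).

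**Figure D3:**
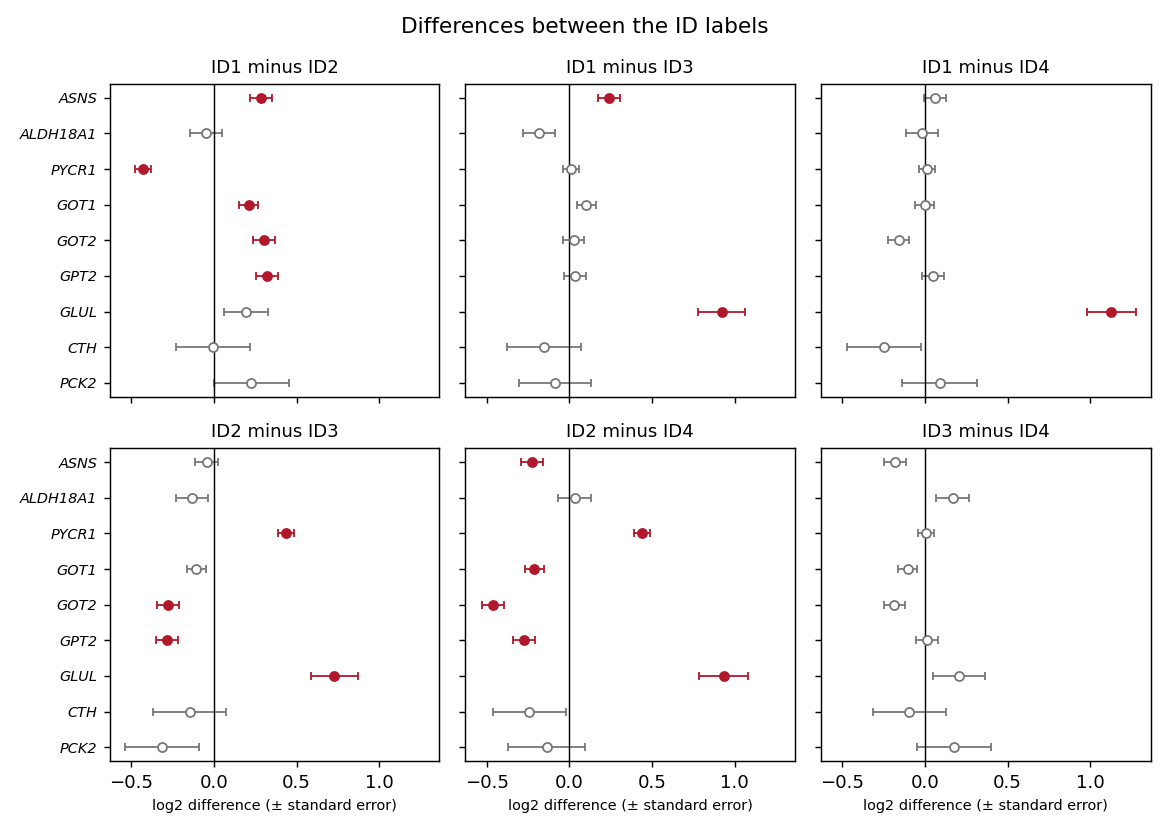
Log2 differences of the 9 genes for the 6 pairs of ID labels (x axis, first label minus second), with bars for the standard error; filled points passed an adjusted p of 0.05 (edgeR). In the 3 panels with ID2, the points of PYCR1, GOT2 and GPT2 are filled, and GLUL is filled in the 4 panels that set ID1 or ID2 against ID3 or ID4.

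The genes nearest to these enzymes in metabolism were called about as often as all genes. Of 37 listed genes of the same pathways, 25 were tested, and for ID1, ID2, ID3 and ID4 against GFP 3, 6, 3 and 4 of them rose and 2, 2, 3 and 1 fell. In the same comparisons, 12.4%, 18.5%, 15.1% and 12.1% of all tested genes were called higher and 9.73%, 16.7%, 13.5% and 9.51% lower. Their median log2 fold changes were 0.00, 0.10, 0.01 and 0.06, where that of all tested genes was 0.00 in each. These lists too were drawn up with earlier results of the data known. The isoenzymes of the members gave few counts: PCK1, the cytosolic counterpart of PCK2, was at 0 in 14 of 15 libraries, GOT1L1 was at 0 in all, and GPT, the cytosolic alanine aminotransferase, had at most 0.485 CPM. PYCRL, a cytosolic reductase of the proline pathway, was not called.

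The largest difference in these lists was in the breakdown of proline. ALDH4A1, which oxidises the product of proline oxidation to glutamate in mitochondria, rose in all 4 groups, as did 6.11% of all tested genes. Its level was 9.79, 9.78 and 12.1 CPM in GFP, and 26.1, 30.3 and 26.9 in ID1. It was 44.2, 41.1 and 39.4 in ID2, against 25.5 to 30.3 in ID3 and 23.8 to 27.1 in ID4. The groups did not overlap with GFP, and ID2 was above the other labels. The log2 fold changes were 1.38, 1.99, 1.34 and 1.29 (standard error 0.11 each). PRODH, which carries out the step before it, was at 0 in every library, and ASRGL1 and ASPG, which split asparagine, had at most 1.17 and 0.083 CPM.

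Of the enzymes of glutamine and glutamate, glutamate dehydrogenase GLUD1 fell in ID2 and ID3 (-0.29 and -0.35, standard error 0.09 each), GLS2 rose in ID1 (0.72, standard error 0.25), and GLUD2 was not called. In the neighbourhood of CTH, the cysteine-degrading enzyme MPST fell in all 4 groups, from 49.9 ± 2.41 CPM in GFP to 31.4 ± 2.46, 23.2 ± 3.02, 37.8 ± 4.87 and 30.6 ± 2.62, while CBS, which makes the substrate of CTH, had at most 0.141 CPM. MAT2A, which makes S-adenosylmethionine, rose in ID2, ID3 and ID4 by 0.17, 0.20 and 0.35. Of the other aminotransferases, 6 of 10 were tested, and single calls were made for BCAT2 in ID2 (0.39) and BCAT1 in ID4 (0.20). The 6 genes of the malate-aspartate shuttle and of anaplerosis, which work with GOT1 and GOT2, had 1 call, MDH2 in ID2 (0.17). In the arginine and aspartate list ASL rose in ID2 (0.52), and ASS1, which uses aspartate, had at most 0.282 CPM.

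Genes linked to ATF4 in other ways were mostly lower. Of 55 listed genes 54 were tested, and 34, 40, 38 and 39 fell for ID1, ID2, ID3 and ID4 while 4, 4, 5 and 3 rose. Of all tested genes 9.73%, 16.7%, 13.5% and 9.51% fell and 12.4%, 18.5%, 15.1% and 12.1% rose in the same comparisons, which is the background for each list that follows. The median log2 fold change of the 54 genes was -0.46, -0.49, -0.47 and -0.42, against 0.00 for all tested genes. Among the ATF4 regulators and early targets, 10 of 16 fell in each group, with the largest mean changes for CHAC1 (-1.67 to -1.89), a glutathione-degrading enzyme, and for TRIB3 (-0.79 to -1.53) and DDIT4 (-0.89 to -1.29). ATF4 itself, named here after its values were seen, was at 306 ± 14.1 CPM in GFP and 217 ± 0.642, 182 ± 2.06, 180 ± 11.1 and 214 ± 3.90 in ID1 to ID4. GDF15 and CEBPB rose in all 4 groups (0.39 to 0.69 and 0.20 to 0.29), and they too were picked out after the fact. In the serine and folate list 6 of 9 genes fell in each group, led by PSAT1, a transaminase of the serine pathway (-1.61 to -2.09), and PHGDH (-1.04 to -1.71). Of 10 amino acid transporters 7, 8, 7 and 8 fell, with SLC7A5 (-2.35 to -3.55) and the cystine transporter SLC7A11 (-1.46 to -2.01) changing most. Of 19 cytosolic aminoacyl-tRNA synthetases tested, 11, 16, 15 and 15 fell, led by AARS (-0.68 to -0.91), GARS (-0.69 to -0.77) and WARS (-0.66 to -0.77).

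**Figure D4:**
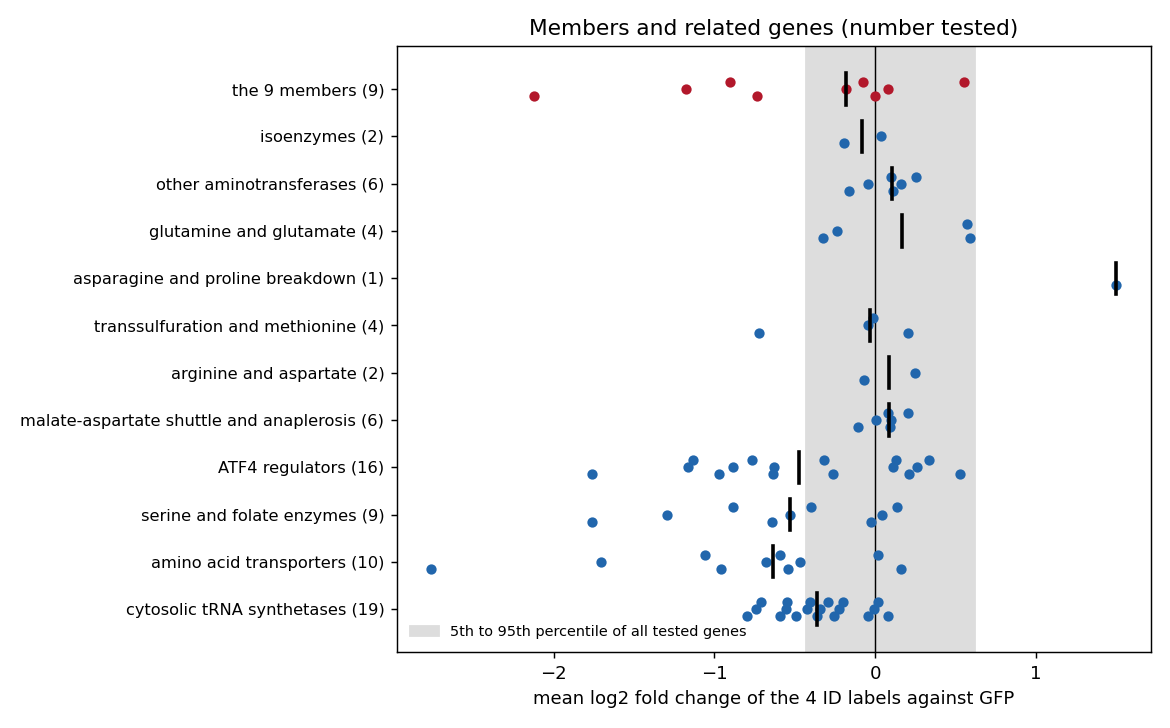
Mean log2 fold change of the 4 ID labels against GFP (x axis) for the 9 members (red) and for the tested genes of each related list (blue), with the number tested in parentheses. Black ticks are list medians, and the grey band spans the 5th to 95th percentile of all tested genes, from -0.43 to 0.62.

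The genes whose levels followed a member most closely were found by Pearson r of log2 CPM over the 15 libraries, a description of libraries that share their groups. For ASNS these included ARL14EP (0.99), MTPAP (0.98), PSAT1 (0.97) and GARS (0.97). Over the 12 ID-labelled libraries alone their r was -0.08, 0.11, 0.57 and 0.14, lower in each case than with GFP included. For PYCR1, RAD50 and ZNF473 had r of 0.98 each over 15 libraries and 0.99 and 0.98 over 12. GOT1 was followed by TLDC1 and DDX21 (0.93 and 0.92, and 0.94 and 0.89 over 12), and GOT2 by RASSF5 and RFWD3 (0.94 and 0.93, and 0.97 and 0.94 over 12). GPT2 was followed by RPL13 and AHRR (0.97 each, and 0.85 and 0.80 over 12), and GLUL by BCL11B and MME (0.92 and 0.91, and 0.92 each over 12). For CTH the closest were KIAA1279 and SEPHS1 (0.91 and 0.90, and 0.73 and 0.79 over 12), and for PCK2 SLC25A29 and SLC7A11 (0.92 and 0.91, and 0.68 and 0.63 over 12). ALDH18A1 was followed by CNST and MAN1A1 (0.76 and 0.74, and 0.83 and 0.74 over 12).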

How the data were processed

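RNA from U87MG cells was measured in 15 libraries, 5 groups of 3 set by the sample titles. Libraries were prepared with the Lexogen QuantSeq 3′ kit and processed by eBiogen on hg19 (GRCh37), and the submitters' processing notes name Bowtie2 and BWA without their roles. The counting tool, annotation and strand setting are not given in the sources used here. The authors deposited raw counts per gene symbol, which were used for levels and tests, and log2 values that they had normalized between libraries, which were used to filter genes and in 1 alternative.

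Levels are CPM, counts scaled to the library total. Counts were fitted with edgeR 4.0.16 in R 4.3.3 (TMM factors 0.978 to 1.03, quasi-likelihood test, 1 mean per group, all 15 libraries), with Benjamini-Hochberg adjustment over the 12870 tested genes of each comparison and a threshold of 0.05. Intervals are 95% intervals from that fit. The tests were tried on simulated data with known changes. No pair of libraries agreed within sampling noise. Positions came from GENCODE lifted to GRCh37, which placed 90.4% of the tested genes, and promoters from RefSeq (GRCh38.p14). Python 3.11.15 and matplotlib 3.10.9 made the figures.

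The 9 members and the related lists were chosen with earlier results of these data known, so no p of a member against GFP is given and its calls there are a description. The members are all named, of lists of up to 10 genes any may be named, and of longer lists the 3 with the largest mean change. For each member the closest genes by correlation are named, 5 for ASNS and 2 for the others. Values of some genes that this rule names are not reported here. VARS, with 7 entries, was left out. Alternatives were DESeq2 1.42.0, limma 3.58.1 with trend on the deposited log2 values, library totals without TMM, 3 other filters, only the 2 groups compared, the replicate number as a block, and leaving out each library.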

Additional observations from a re-analysis of the deposited data

How the results depend on the processing

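Every call of a member against GFP kept its direction and its side of the threshold under each alternative that tested the gene. With only the upper 25% of genes tested, which leaves out GLUL, CTH and PCK2, the members called against GFP numbered 2 for ID1, 5 for ID2, 3 for ID3 and 2 for ID4, and between labels 1 for ID1 and ID3, 0 for ID1 and ID4 and 1 for ID3 and ID4 (GOT2). In that setting 3 of the pathway genes were called for ID1 against GFP, and 3 to 4 with each library left out. For ID1 and ID3, 1 member was called with no filter, which tests more genes, and 1 to 2 with each library left out.

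No called value changed sign. Values against GFP that were not called crossed 0 over the alternatives for ALDH18A1 (-0.077 to 0.089 for ID2, -0.13 to 0.014 for ID4), PYCR1 (-0.047 to 0.012 for ID1, -0.053 to 0.0040 for ID3) and GLUL (-0.12 to 0.12 for ID4). The other reversals were of uncalled values between labels and of a correlation. Without TMM factors CTH became 0.025 for ID1 minus ID2 and GOT1 0.0125 for ID1 minus ID4. Over the 12 ID-labelled libraries, r of ASNS with ARL14EP became -0.075. With each library left out in turn, log2 differences spanned 0 as follows. ALDH18A1 ranged from -0.16 to 0.013 (ID1 and ID2), -0.080 to 0.068 (ID1 and ID4) and -0.030 to 0.14 (ID2 and ID4). PYCR1 ranged from -0.0097 to 0.031 (ID1 and ID3), -0.0052 to 0.039 (ID1 and ID4) and -0.011 to 0.017 (ID3 and ID4). GOT1 ranged from -0.042 to 0.024 (ID1 and ID4), GOT2 from -0.0057 to 0.053 (ID1 and ID3), and GPT2 from -0.033 to 0.075 (ID1 and ID3) and -0.033 to 0.081 (ID3 and ID4). CTH ranged from -0.14 to 0.11 (ID1 and ID2), -0.44 to 0.027 (ID1 and ID3), -0.43 to 0.032 (ID2 and ID3) and -0.27 to 0.19 (ID3 and ID4). PCK2 ranged from -0.013 to 0.51 (ID1 and ID2), -0.040 to 0.24 (ID1 and ID4) and -0.42 to 0.10 (ID2 and ID4). ALDH18A1, CTH and PCK2 were not called between labels under any alternative.

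Whether equal replicate numbers mark a shared day or culture is not given in the labels. Same-numbered libraries had deviations from their group means that correlated at -0.25 to 0.24 over 30 pairs. Libraries with different numbers were not compared in this way, so pairing was not tested. With the replicate block the members called remained 5, 8, 5 and 4 in number against GFP and 5, 2, 1, 4, 6 and 0 between labels, GOT1 in ID1 minus ID4 became 0.00053, and the calls over all genes went from 2849 to 2713 for ID1 against GFP.

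Depth limits PCK2 and CTH most, with 28 to 114 and 45 to 162 counts per library. Promoter entries were not used for PYCR1 and GPT2. Protein, metabolites and ATF4 activity were not analysed here, so mRNA levels are all that these values describe.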
